A study of Mus musculus with 2 samples.

Results

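The genes described here encode the subunits, assembly chaperones, activators and inhibitor of the proteasome. They were chosen by name alone: a protein-coding gene of the mouse annotation belongs if its symbol is Psm, then one of the letters a to g, then a digit. The rule found 50 genes among 21938 protein-coding genes. One of them, Psmc3ip, encodes a meiotic recombination factor that only interacts with a proteasome ATPase and carries the symbol for that reason. DNase-seq, which maps stretches of DNA that DNase I can cut in intact nuclei, was available for 2 biological replicates of whole limb from mouse embryos of the B6NCrl strain at 11.5 days, with male and female embryos pooled and no treatment. Both replicates are 1 group, so the design holds no contrast, and values are given for each library apart and for both together.

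The proteasome is the barrel-shaped protease that degrades ubiquitin-tagged proteins in every nucleated cell. Its core particle is built of alpha rings, which gate the channel, and beta rings, which carry the cutting sites in Psmb5, Psmb6 and Psmb7. A regulatory particle, with an ATPase ring, a base and a lid, recognises, unfolds and feeds in the substrate. Under interferon, and in blood and immune cells, Psmb8, Psmb9 and Psmb10 replace the 3 constitutive cutting subunits, which changes the peptides offered on MHC class I.

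The deposited lists held 174430 peaks for replicate 1 and 167369 for replicate 2 on the 21 named chromosomes, each peak 150 bp long with a signal that is the authors' own value and whose scaling the sources used here do not state. Signals ran from 2 to 146 in replicate 1 and from 2 to 149 in replicate 2, with medians of 47 and 39. Each signal was therefore read as a percentile, its mid-rank among all peaks of the same library, in which percentile 90 lay at a signal of 93 in replicate 1 and 87 in replicate 2. A promoter peak had its centre within 1 kb of the start of a protein-coding transcript, and a shared one overlapped a peak of the other library. Wider regions called hotspots were deposited with a −log10 q value, which stopped at a ceiling of 100. Read depth was unknown, and in whole tissue a site open in fewer cells and a site less open in each cell cannot be told apart. The label was checked on markers: 9 of 10 limb mesenchyme genes had a shared promoter peak, where 66.8% of all protein-coding genes did, and 5 of the 10 reached percentile 90 in both libraries, where 44.6% of all genes did. Their signals ran from 67 to 127 in replicate 1, with Prrx2 and Tbx5 lowest and Msx1 highest, and from 62 to 132 in replicate 2. Hoxd13 had a peak in replicate 2 alone. Among the other marker lists the count was 2 of 10 for white blood cells, 2 of 5 for testis germ cells and 2 of 3 for thymic epithelium.

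Bases under the promoter peaks of the cutting subunits and of the highest-ranked members are shown here, because the values that follow were measured there. All were read from the GRCm38 genome (mm10) along the gene's own strand, 5′ to 3′. Stretches that the annotation places in untranslated exons are left out. Capitals mark letters of one of 11 words searched on both strands, each named for the factor it is usually drawn for. A match is a description of the letters only. For Psmb5 the stretch is chr14:54618023-54618145 on the minus strand and its capitals mark TGACNNNGC, the core of the antioxidant response element. The stretch of Psmb6 is chr11:70525256-70525385 on the plus strand, with the same word in capitals. The Psmc4 stretch, chr7:28050136-28050265 on the minus strand, holds 2 GC boxes (GGGCGG), one on each strand. The Psmd8 stretch is 50 coding bases at chr7:29180596-29180645 on the minus strand, with none of the words.
Psmb5: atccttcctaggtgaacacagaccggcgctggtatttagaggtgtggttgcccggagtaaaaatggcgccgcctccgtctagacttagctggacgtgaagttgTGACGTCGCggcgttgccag
Psmb6: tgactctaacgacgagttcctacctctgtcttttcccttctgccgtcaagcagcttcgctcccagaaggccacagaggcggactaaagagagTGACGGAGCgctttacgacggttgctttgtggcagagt
Psmc4: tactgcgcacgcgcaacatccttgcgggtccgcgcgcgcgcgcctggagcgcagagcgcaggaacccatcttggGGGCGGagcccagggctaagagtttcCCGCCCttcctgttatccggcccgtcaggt
Psmd8: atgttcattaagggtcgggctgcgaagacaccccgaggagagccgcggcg

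The immune stretches follow. The Psmb8 peak bases at chr17:34197596-34197720, plus strand, end just before the gene's nearest annotated start and hold TGACGTCA, the cAMP response element, in capitals. For Psmb10 the first stretch, chr8:105938445-105938565 on the minus strand, lies under a weak peak at the annotated start that was called in replicate 1 alone. The other, chr8:105936996-105937125 on the minus strand, lies under the strong peak in the gene body, called in both libraries. Its capitals mark the ETS word CCGGAAG, TGACNNNGC on the opposite strand and a GC box, in that order.
Psmb8: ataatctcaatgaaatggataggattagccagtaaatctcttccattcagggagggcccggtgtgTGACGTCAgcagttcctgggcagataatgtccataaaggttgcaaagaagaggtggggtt
Psmb10 at the start: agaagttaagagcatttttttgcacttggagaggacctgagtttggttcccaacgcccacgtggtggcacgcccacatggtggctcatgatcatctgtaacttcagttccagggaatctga
Psmb10 in the gene body: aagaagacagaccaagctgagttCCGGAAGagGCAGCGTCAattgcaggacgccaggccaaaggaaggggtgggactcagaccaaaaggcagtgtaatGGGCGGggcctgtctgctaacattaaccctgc

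Nearly every proteasome gene had an open promoter in the limb. A shared promoter peak was found for 48 of the 50 genes (96%), beside 66.8% of all protein-coding genes. In replicate 1 alone 48 genes had a promoter peak, where 68.4% of all genes did, and in replicate 2 alone 48 did, where 68.8% of all genes did. The highest promoter peak reached percentile 90 in both libraries at 44 genes (88%), against 44.6% of all genes. Among genes with a shared promoter peak the shares were 91.7% of the proteasome genes and 66.8% of all genes. Other genes that every cell needs had shares of the same order. By symbol, 91 of 101 ribosomal protein genes (90.1%) and 88 of 94 respiratory chain genes (93.6%) had a shared promoter peak, and 86 and 82 of them reached percentile 90 in both libraries. These shares are descriptions, and no test compares them.

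The open members had strong peaks close to their starts. Over the 48 genes the median signal was 114 in replicate 1 and 115 in replicate 2. Over all genes with a promoter peak in the same library it was 107 and 108. The median of the mean percentile over both libraries was 96.5, against 95.1 over all genes with a shared promoter peak. Peak centres lay from 150 bp before to 50 bp after the nearest start in both libraries at 41 of the 48 genes (85.4%), against 65.4% of all genes with such a peak. The libraries ranked the genes closely: the percentiles differed by a median of 1.05 points, against 1.53 over all genes with a shared promoter peak. The signal was higher in replicate 1 at 24 genes and in replicate 2 at 24. Over all genes with a shared promoter peak these counts were 6974 and 6996. Signals of the 2 libraries are on separate scales, so such counts compare deposited numbers and not openness.

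**Figure D1:**
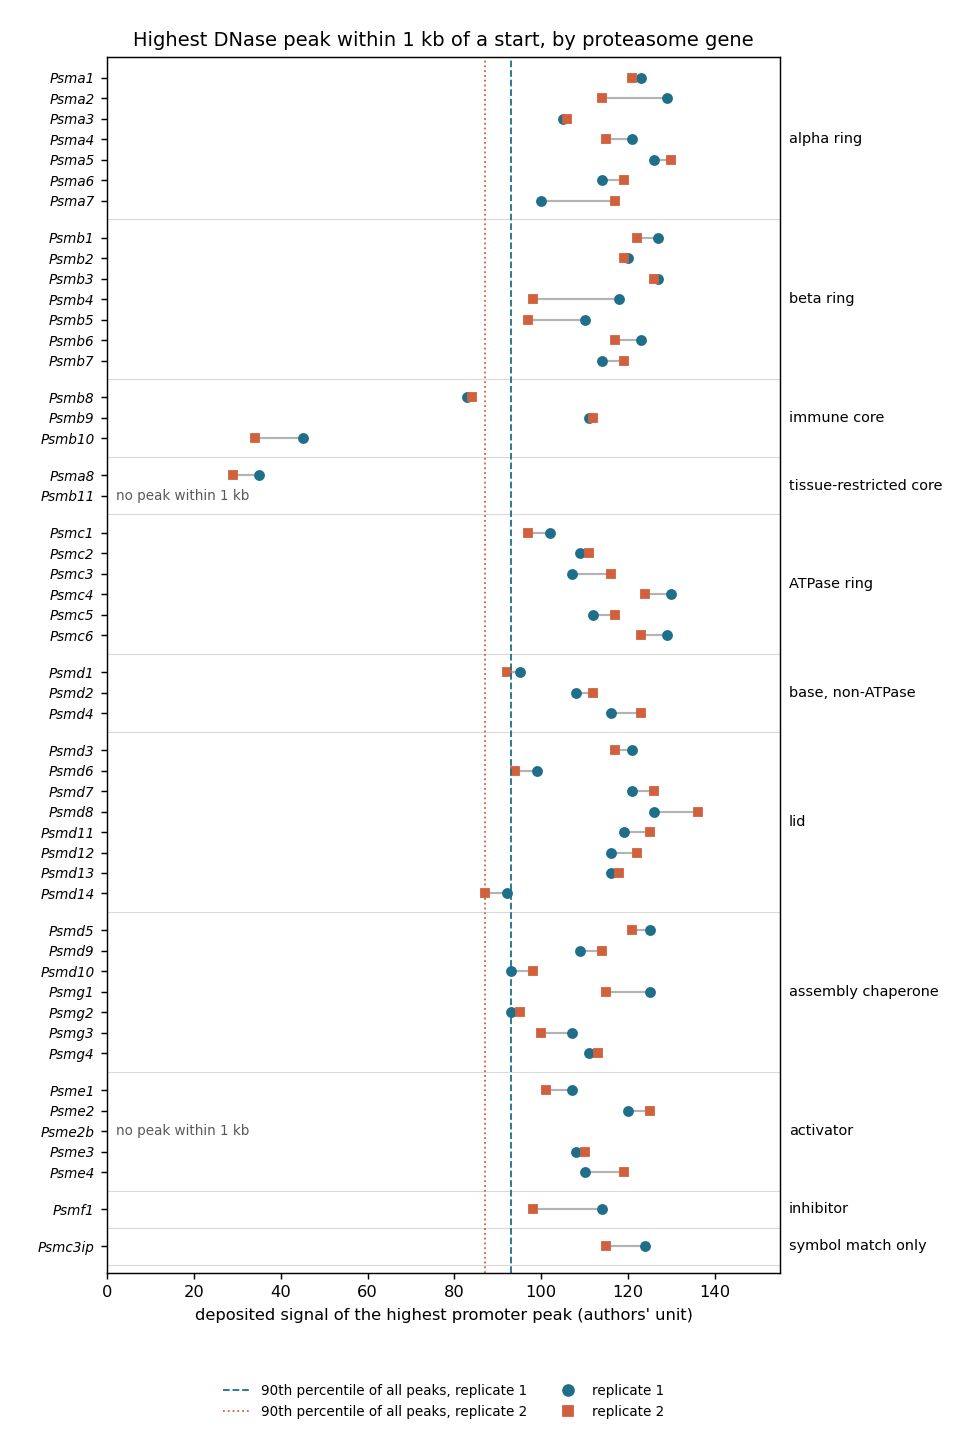
Deposited signal of the highest peak within 1 kb of a start (horizontal axis, authors' unit) for each of the 50 genes, grouped by role; circles are replicate 1, squares replicate 2, and the vertical lines mark percentile 90 of each library (93 and 87). Most genes lie to the right of both lines, and Psmb8, Psmb10 and Psma8 lie to the left in both libraries while Psmb11 and Psme2b have no promoter peak.

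Both constitutive rings of the core particle were open at every gene. The 7 alpha ring genes, Psma1 to Psma7, had signals from 100 to 129 in replicate 1 and from 106 to 130 in replicate 2, and all 7 passed percentile 90 in both. Psma5 stood among the 5 highest members by mean percentile, with 126 and 130. Its peak centre lay 125 bp inside the gene in both libraries. Psma3 had signals of 105 and 106 at a hotspot of only 316 bp in each library. Psma7 had 100 and 117 in the widest hotspot of the rings in both libraries, at 1936 and 1910 bp, with 4 shared promoter peaks. The 7 beta ring genes, Psmb1 to Psmb7, had signals from 110 to 127 in replicate 1 and from 97 to 126 in replicate 2. The highest beta gene by mean percentile was Psmb3, which encodes a subunit without a cutting site, at 127 and 126.

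Among the 7 beta ring genes the libraries differed most at Psmb4, another subunit without a cutting site. Its signal was 118 in replicate 1 and 98 in replicate 2, and its percentile fell by 4.48 points, from 97.4 to 92.9. Its peak centre was at the same place in both, 10 bp before the start. Of the 3 constitutive cutting subunits, Psmb5 (the chymotrypsin-like site) had signals of 110 and 97. Psmb6 (the caspase-like site) had 123 and 117 at a peak centred 55 bp upstream of its start in both. Psmb7 (the trypsin-like site) had 114 and 119, centred 96 and 116 bp inside the gene. All 3 lay at percentile 92.7 or above in each library.

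The 3 immune counterparts differed among themselves. Psmb9, which replaces Psmb6, lay within the range of the 3 constitutive genes, with signals of 111 and 112 (percentiles 95.8 and 95.9). Psmb8, which replaces Psmb5, was lower, at 83 and 84 (percentiles 85.1 and 88.7). Psmb10, which replaces Psmb7, had only weak peaks within 1 kb of its start, the highest at 45 in replicate 1 and 34 in replicate 2 (percentiles 47.3 and 41.6). All 3 had a shared promoter peak, as did 45 of the other 47 members (95.7%), but 1 of 3 against 43 of 47 (91.5%) passed percentile 90 in both libraries. With 3 genes, which are no replicates of a condition, no test was made.

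Psmb8 and Psmb9 lie in the MHC region of chromosome 17. The Psmb8 peak was at the same bases in both libraries, centred 50 bp before the nearest of its annotated starts, in a narrow hotspot of 573 and 460 bp. Psmb9 shares its peak with Tap1, which encodes a subunit of the peptide pump that loads MHC class I. The 2 genes are read from opposite strands, with their nearest annotated starts 38 bp apart. The peak was at chr17:34187316-34187465 in replicate 1 and chr17:34187356-34187505 in replicate 2, in a hotspot of 971 and 1005 bp. Its centre lay 172 and 212 bp upstream of the nearest Psmb9 start, which is not the principal one. From the principal start it lay 373 and 333 bp inside the gene. Replicate 1 had another peak, with a signal of 78, centred 93 bp inside the gene from the principal start. In this arrangement a peak cannot be given to Psmb9 or to Tap1 alone.

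At Psmb10 the strong site lay past the promoter window. Replicate 1 had 3 peaks within 1 kb of the start, with signals of 32, 33 and 45, and replicate 2 had 2, with 30 and 34. The highest peaks of the 2 libraries were not the same peak: their centres lay 753 and 453 bp inside the gene. A peak with signals of 111 and 117 (percentiles 95.8 and 97.0) lay 1393 and 1373 bp inside the gene in replicates 1 and 2. Both values lie within the range of the 3 constitutive genes. Its bases fall in intron 4 of the gene's 8 exons, 14 bp from the next exon, as the annotation gives them. Of the 7 annotated transcripts of Psmb10, 3 start under this peak and none of these 3 is coding. The hotspot that holds it, 1485 and 1367 bp wide, begins 235 and 350 bp after the start, so the annotated start itself lay outside it. In replicate 1 a separate hotspot of 224 bp with a −log10 q of 3.19 covered the start, and in replicate 2 none did. Counting starts of all annotated transcripts, or reaching 2 kb from the coding starts, puts Psmb10 at percentile 96.4. Narrowing the window to 500 bp puts it at 31.4.

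**Figure D2:**
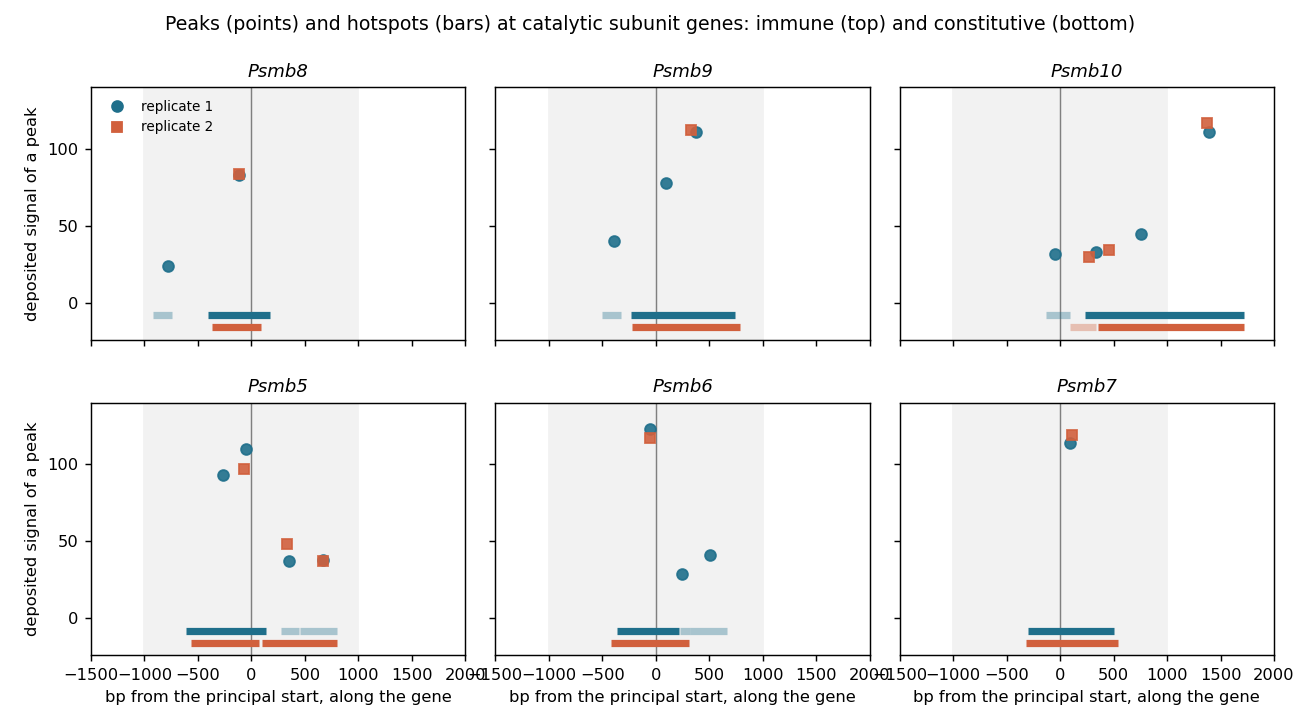
Peaks and hotspots at the 3 immune genes (top row) and the 3 constitutive cutting subunits (bottom row), by distance in bp from the principal start along the gene (horizontal axis) and deposited signal (vertical axis); bars below 0 are hotspots, pale where the −log10 q is under the ceiling of 100, and the grey band is the 1 kb window. Every gene but Psmb10 has its strongest peak inside the band, and the strongest of Psmb10, at 111 and 117, lies beyond it.

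Other genes of MHC class I antigen processing, from a list taken from general knowledge, gave the surroundings of the immune subunits. All 11 had a shared promoter peak, against 66.8% of all genes, and 6 of the 11 (54.5%) passed percentile 90 in both libraries, against 44.6%. These 6 were Tap1, Tapbp, B2m and the endoplasmic reticulum folding genes Calr, Canx and Pdia3. Lower values were found at Tap2, the partner of Tap1, with 81 and 77, at the class I heavy chain gene H2-K1 with 79 and 59, and at Tapbpl, a peptide editor, with 61 and 45. White blood cells carry immunoproteasomes, and their markers were measured the same way. Only Cd68 (61 and 34) and Cd14 (71 and 78) of the 10 had a shared promoter peak. Ptprc had a peak in replicate 1 alone, at 35, and Spi1 in replicate 2 alone, at 25. No promoter peak was listed for Csf1r, Laptm5, Tyrobp, C1qa and Cd3e. The part of such cells in the immune subunits' peaks was not tested.

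Subunits restricted to single tissues had a weak promoter peak or none. Psmb11, the cutting subunit of cortical thymic epithelium, had no promoter peak and no distal peak, although its start at 54625310 is near that of the open Psmb5 at 54618022 on chromosome 14. Of 3 thymic epithelium markers, Foxn1, the defining transcription factor, had no promoter peak, while Ccl25 had 120 and 134 and Aire 60 and 71. Psma8, the alpha subunit of testis proteasomes, was the weakest member with a shared peak. Its signals were 35 and 29 (percentiles 26.0 and 30.5), in hotspots of 271 and 357 bp. Its −log10 q values of 5.40 and 3.03 made it the only one of the 48 genes below the ceiling in either library. In replicate 1, 2 peaks of Psma8 tied at 35, one centred 780 bp upstream and one 22 bp inside the gene. The hotspot width and q given for replicate 1 are those at the upstream peak. In replicate 2 the highest peak was at the start. Testis germ cell genes were mixed, with Dazl at 103 and 115, Stra8 at 33 and 31, and no promoter peak at Ddx4, Sycp3 and Tex101.

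All 6 ATPase genes of the regulatory particle, Psmc1 to Psmc6, passed percentile 90 in both libraries. Psmc4 had signals of 130 and 124 and Psmc6 had 129 and 123, both among the 5 highest members by mean percentile. The lowest ATPase gene was Psmc1, at 102 and 97. The base genes Psmd1 and Psmd2, whose products are its large scaffold subunits, had 95 and 92 and 108 and 112. Psmd4, a ubiquitin receptor, had 116 and 123.

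The lid held both the highest member and one of the lowest. Psmd8, a structural lid subunit, ranked first of 48 by the mean percentile of both libraries, with signals of 126 and 136 (percentiles 99.0 and 99.9). Psmd14, the enzyme that removes ubiquitin chains before degradation, had 92 and 87 (percentiles 89.6 and 89.9), just under percentile 90 in both libraries. Just above that threshold lay Psmg2 with 93 and 95, Psmd10 with 93 and 98, and the base gene Psmd1. Psmd7, which pairs with Psmd14 in the lid, had 121 and 126. The other lid genes, Psmd3, Psmd6, Psmd11, Psmd12 and Psmd13, ran from 99 to 121 in replicate 1 and from 94 to 125 in replicate 2.

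The 7 genes for assembly chaperones all passed percentile 90 in both libraries. Psmd5 (125 and 121), Psmd9 (109 and 114) and Psmd10 (93 and 98) help build the base. Psmg1 (125 and 115) and Psmg2 (93 and 95) form the pair that starts the alpha ring, and Psmg3 (107 and 100) and Psmg4 (111 and 113) act beside it. Psmg2 had the widest promoter hotspot of the 48 by the mean of both libraries, at 1721 and 2228 bp, and its start lies 263 bp from that of Cep76, a centrosome gene on the opposite strand.

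Activators that cap the core in place of the regulatory particle were open at 4 of 5 genes. Psme1 and Psme2, which encode the 2 chains of the interferon-induced cap, had signals of 107 and 101 and of 120 and 125. Psme3, the nuclear cap, had 108 and 110. Psme4, a large cap linked to spermatogenesis and DNA repair, had 110 and 119. Psme2b, named for its likeness to Psme2, had no promoter peak in either library. The sources used here do not say how reads that map to more than 1 place were treated. The inhibitor gene Psmf1 had 114 in replicate 1 and 98 in replicate 2. Psmc3ip, the meiotic factor matched by symbol, had 124 and 115.

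Hotspots under the promoter peaks were no wider than those of other genes. The median was 901.5 bp in replicate 1 and 1032 bp in replicate 2, where all genes with a promoter peak in the same library had 963 and 1113 bp. At 32 genes the hotspot was wider in replicate 2 and at 15 in replicate 1. Over all genes with a shared promoter peak the same counts were 9748 and 4742, so the members did not stand apart in this. The −log10 q reached the ceiling in both libraries at 47 of the 48 genes (97.9%), so q could not rank the members. The share was 88.8% over all genes with a shared promoter peak. By the mean of both libraries the widest after Psmg2 were Psma7 and Psme4, the latter at 860 bp in replicate 1 and 2341 bp in replicate 2. The narrowest by that mean were Psmb8, Psma3 and Psma8. Psmb8 had 573 and 460 bp, and in replicate 1 Psmd2, Psmd6, Psmb4 and Psma5 were narrower than it.

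**Figure D3:**
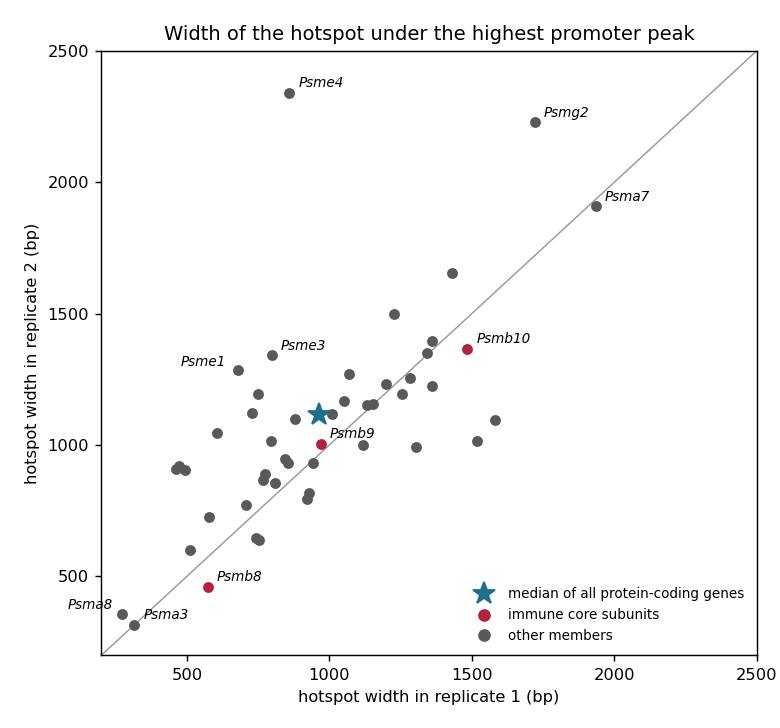
Width in bp of the hotspot under the highest promoter peak in replicate 1 (horizontal axis) and replicate 2 (vertical axis), 1 point for each of the 48 genes with such a peak, immune core genes in red, with the diagonal of equal width and a star at the median of all protein-coding genes (963 and 1113 bp). Psme4 lies farthest from the diagonal, at 860 and 2341 bp, and Psma8 and Psma3 lie at the narrow end.

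Some members started near a neighbour on the opposite strand. A protein-coding gene starting within 1 kb on the opposite strand was present for 11 of 50 (22%), against 11.4% of all genes and 37.2% of respiratory chain genes. These pairs were Psma2 with Mrpl32, Psma4 with AY074887, Psma7 with Ss18l1, Psmb1 with Tbp, Psmb9 with Tap1, Psmc2 with Dnajc2, Psmc5 with Ftsj3, Psmd10 with Atg4a, Psmd13 with Sirt3, Psme2 with Rnf31 and Psmg2 with Cep76. The gap between starts ran from 32 bp at Psmc2 to 595 bp at Psme2. At these genes a promoter peak may lie near the starts of both genes, and which of them it belongs to was not tested.

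Peaks away from promoters were no more numerous than at other genes. A distal shared peak, over 1 kb from every coding start and nearest to the gene within 500 kb, was absent at 24 of 50 members (48%), against 34.2% of all genes. The median was 1 for the members and 1 for all genes. Of 109 distal shared peaks in all, Psmd7 had 16, Psmg1 11 and Psmg4 10. At Psmd7 they reached from 15763 bp downstream of the start to 170387 bp upstream, and the highest, with signals of 110 and 99, lay 11553 bp downstream. At Psmg1 the highest lay 142229 bp downstream, at 114 and 97, and only 1 of the 11 lay inside the gene. Limb genes assigned by the same rule had more, with a median of 24 over the 10 mesenchyme markers and 66 at Lmx1b. Being nearest to a start does not show that a peak acts on that gene.

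Promoter sequence was compared over 42 members that matched the RefSeq promoter table for GRCm38.p6, which gives 250 bases before and 50 after a start, beside 16521 protein-coding genes in the same table. Psma8, Psmb1, Psmb2, Psmb7, Psmc3, Psmd3, Psmd7 and Psmg2 were not among them. CpG content was measured as the observed number of CpG pairs over the number the base composition gives. Its median was 0.749 for the members and 0.602 for all genes, and 30 of 42 members (71.4%) were CpG-rich at 0.6 or above, against 50.2% of all. All 30 had a shared promoter peak, against 97.1% of all CpG-rich genes. Of the 12 CpG-poor members 10 had one (83.3%), against 40.1% of all CpG-poor genes. The median of the mean percentile was 97.0 for CpG-rich and 94.8 for CpG-poor members with a peak, and 96.5 and 88.2 for all genes.

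CpG-poor members were of several kinds. The lowest values were 0.0904 at Psme2b, 0.165 at Psmb11 and 0.192 at Psmb10. All 5 members known as interferon-induced, Psmb8, Psmb9, Psmb10, Psme1 and Psme2, fell under 0.6, with Psmb9 the highest of them at 0.5996. This set of 5 was drawn up after the values were seen. The other CpG-poor members were Psma3, Psmb4, Psmd4, Psmd9 and Psmd10, and each of these 5 passed percentile 90 in both libraries. The RefSeq start lies 405 bp from the principal annotated start at Psmb8 and 434 bp at Psmb9, and the Psmb8 window does not reach its peak.

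**Figure D4:**
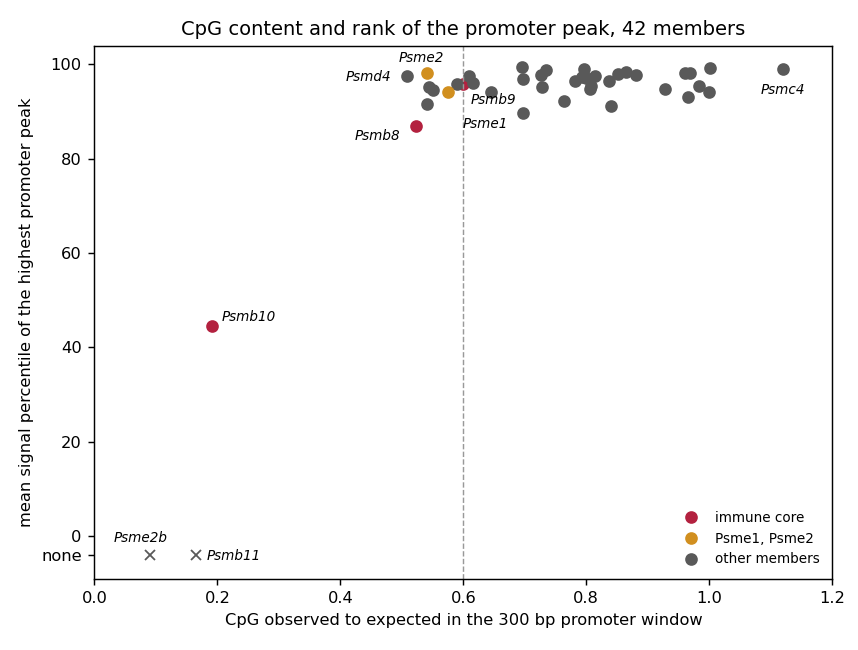
CpG observed to expected in the promoter window of 300 bp (horizontal axis) and mean signal percentile of the highest promoter peak over both libraries (vertical axis) for the 42 members with a RefSeq entry; crosses at the foot are members with no promoter peak and the dashed line marks 0.6. Psmb10, Psmb11 and Psme2b lie at 0.192 or below, and the members from Psmd4 at 0.508 upward lie at percentile 86.9 or above.

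The ETS word CCGGAAG is read by a large family of activators common at promoters of widely used genes. Of the words searched in the 300 bp promoter window, it stood farthest above its background. It was present at 15 of 42 members (35.7%), against 12.4% of all promoters. It was also searched in the 150 bp of the highest promoter peak of replicate 1, at genes with a shared promoter peak. There it was found at 14 of 40 members (35%), against 13.4%. The other word counts under the promoter peak use the same bases. At Psmb10 and Psmd13, which are among the 14, the highest peak of replicate 2 lay elsewhere. The word holds a CpG pair: among CpG-rich promoters it was present at 14 of 30 members (46.7%) and 20.3% of all genes. By role it was uneven. It was present at 9 of 14 genes of the regulatory particle (64.3%) and at 1 of 11 genes of the constitutive core rings, Psma6. This split by role was made after the matches were seen, and no test was run on it. The 9 sites of the regulatory particle nearest the RefSeq start follow, each with 10 bases on either side, written along the strand that reads CCGGAAG, with the word in capitals, to show what the genes share beyond it.
Psmc1: atcgccaccgCCGGAAGtgcatccacc
Psmc2: gagccccatcCCGGAAGtgctcactgg
Psmc6: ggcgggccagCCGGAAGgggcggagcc
Psmd2: gtcctccagaCCGGAAGcgccctgcgg
Psmd4: tacagctgttCCGGAAGctgctgcgaa
Psmd6: agagacgcgaCCGGAAGtcagactggc
Psmd11: aaacacacacCCGGAAGacccgccctc
Psmd12: gtcactcgcaCCGGAAGtcgcccgctc
Psmd13: gcccgcggtgCCGGAAGtgagcgagca

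Over all 15 members the first base of the nearest site lay from 125 bases before to 4 bases after the RefSeq start. Psma6 and Psmc3ip held 3 such sites each in their window. The remaining holders were the activator genes Psme3 and Psme4 and the chaperone genes Psmg1 and Psmg3.

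The antioxidant response word TGACNNNGC, which the proteasome regulators Nfe2l1 and Nfe2l2 read, was no more frequent than elsewhere: 6 of 42 members (14.3%) against 13.3% of all promoters. Its holders were Psmb5, Psmb6, Psmc6, Psmd9, Psmd12 and Psme4, and those of Psmb5, Psmb6, Psmd9 and Psme4 lay under the promoter peak as well. In 1 kb centred on the start it was present at 22 of 42 members (52.4%), against 34.6%. The CCAAT box of NF-Y was present at 14 (33.3%, against 38.6%) and the GC box at 23 (54.8%, against 48.4%). The GC box differed by CpG class. Among CpG-rich promoters it was present at 18 of 30 members (60%) and 74.9% of all genes. Among CpG-poor ones it was present at 5 of 12 members (41.7%) and 21.8% of all genes. GCGCATGC, the word of nuclear respiratory factor, AAGATGGC of YY1 and TTCNNNGAA of STAT factors were each present at 3 members (7.14%), against 3.78%, 3.27% and 7.77%. The holders of TTCNNNGAA were Psmb8, Psmd2 and Psmg1. Under the promoter peak TTCNNNGAA was present at 2 of 40 members (5%), against 2.89%: Psmb8 and Psmd2. The Psmb8 stretch printed above, which leaves out untranslated bases, does not hold that match in full. TCTCGCGA was present at Psmd5 alone. TGACGTCA and GGGANTTTC, a form of the NF-kB site, were found at no member's window, where 2.41% and 1.10% of all promoters hold them. Words can share letters: TGACNNNGC and TGACGTCA both begin with TGAC, and GAAANNGAA and TTCNNNGAA both end in GAA.

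The interferon-stimulated word GAAANNGAA was present at 6 of 42 members (14.3%), against 8.32%, and under the promoter peak at 4 of 40 (10%), against 2.23%: Psmb3, Psmb4, Psmd4 and Psmg4. None of those 4 is an interferon-induced subunit. In the wider 1 kb window it was present at 19 of 42 members (45.2%), against 24.2%, and these included all 5 interferon-induced members. Of the 5, Psme1 alone held it within the 300 bp window and none held it under the promoter peak.

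Regulators of proteasome genes were themselves open. All 16 on a list taken from general knowledge had a shared promoter peak, against 66.8% of all genes. Of these 16, 14 (87.5%) passed percentile 90 in both libraries, against 44.6% of all genes. Nfe2l1, which raises proteasome genes when the proteasome is inhibited, had signals of 127 and 128, and Nfe2l2, the antioxidant response factor, had 124 and 116. The interferon factor Irf1 (111 and 108) lay above percentile 90 in both libraries, while Nlrc5, the activator of MHC class I genes, had 64 and 57. Of 24 ubiquitin and proteasome partner genes outside the symbol rule, 23 were found by symbol. All 23 had a shared promoter peak, and 20 (87.0%) passed percentile 90 in both, beside the same shares of all genes. Adrm1, a ubiquitin receptor of the regulatory particle, had 126 and 137. Pomp, the core maturation factor, had 107 and 116.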

How the data were processed

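DNase-seq peaks and hotspots were analysed for 2 biological replicates of mouse limb at 11.5 days. Regions were called on mm10 from the filtered alignment of each library alone, per the labels and the file descriptions; aligner, caller, settings and read depth were not given in the sources used here. Each deposited peak carries a signal, used for ranks within its own library only. Each deposited hotspot carries a −log10 q value.

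Python 3.11.15 with NumPy 2.4.6 and Matplotlib 3.10.9 was used. Peaks of both libraries overlapping by at least 1 bp were merged into 118491 shared regions, and 181 peaks per library outside the named chromosomes were left out. GENCODE M21 on GRCm38 gave 54471 coding starts. The widest reach of a distal peak was 500 kb. Word counts used the RefSeq table, whose 16521 entries equalled the genome.

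With 1 group no test was possible, so values are descriptions and the spread is that of 2 libraries. Overlap, promoter and word functions were tested on simulated data. Named were immune, constitutive, tissue-restricted, activator and inhibitor genes, members without a shared promoter peak, the 5 highest and lowest, the 3 widest, narrowest, most different and richest in distal peaks, and other members by role. Members and lists were chosen with earlier results of these data known. Some listed genes are not reported by name here. Alternatives changed the window, starts, thresholds, overlap, regions and library.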

Additional observations from a re-analysis of the deposited data

How the results depend on the processing

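No paired analysis was possible because both libraries belong to 1 group. Of 103 alternative values, 86 kept within their range and 17 moved. The 152 values of single named genes that could be measured all kept within it. A gene left with no promoter peak under an alternative gave no percentile and was not counted. This was so for Psmf1 with the 5′ end alone, and for Psma8 and Psmb10 with the weaker peaks dropped. The count of members with a shared promoter peak was 46 to 48 throughout, and 46 in 2 cases: with the 5′ end of the gene alone, which lost Psmd9 and Psmf1, and with weaker peaks dropped (signal at or below the list's median), which lost Psmb10 and Psma8 and left 2 immune subunits. The median percentile of the members was 96.7 with a 2 kb window, 96.7 without the weaker peaks, 96.2 with the 5′ end alone, and 74.2 as a mean over all promoter peaks of a gene, where all genes had 73.0. Leaving out 1 library gave 96.49 to 96.54. Psmb10 had percentile 31.4 with a 500 bp window and 96.4 with a 2 kb window or with starts of all annotated transcripts. In 1 kb windows CCAAT was present at 26 of 42 members (61.9%), against 69.9% of all genes. GCGCATGC was present at 5 (11.9%, against 5.64%) and AAGATGGC at 8 (19.0%, against 8.10%). TGACNNNGC was present at 22 (52.4%, against 34.6%), GAAANNGAA at 19 (45.2%, against 24.2%) and TTCNNNGAA at 13 (31.0%, against 23.6%). Under the highest promoter peak of replicate 1 AAGATGGC was present at 1 of 40 (2.5%, against 2.27%) and TGACGTCA at 1 (2.5%, against 3.15%). Distal shared peaks fell from 109 to 63 without the weaker peaks and numbered 149 to 156 in 1 library alone. The 1 kb window holds more bases than the 300 bp one. The cause of the higher word counts there was not tested. Read depth was unknown, so an absent peak is not shown to be closed chromatin.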
